A study of Homo sapiens with 12 samples.

Results

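The replication-dependent histone genes encode the canonical histones H1, H2A, H2B, H3 and H4 from gene clusters on chromosomes 6 and 1. They were taken as every probe set whose platform gene symbols all carry a number after H1-, H2AC, H2BC, H3C or H4C, with the H1 genes limited to H1-1 to H1-6. The rule found 68 of 54613 probe sets, which name 61 of 21357 genes. Of these probe sets, 7 belong to H1, 15 to H2A, 19 to H2B, 10 to H3 and 15 to H4, and 2 carry symbols of both H3 and H2A genes. RefSeq lists 69 genes whose symbols meet the rule, and 8 of them (H2AC1, H2AC20, H2AC21, H2BC18, H2BC26, H3C13, H3C14 and H3C15) were named by no member probe set.

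The arrays read RNA from MDA-MB-231, an established metastatic breast cancer cell line, grown untreated under normal conditions in all groups. Control cells carried a retroviral small-hairpin construct against GFP (shGFP), a protein that human cells do not make. The shHIF cells carried retroviral hairpins against HIF1a and HIF2a, the oxygen-regulated alpha subunits of the hypoxia-inducible factors (genes HIF1A and EPAS1). The Sharp1 cells overexpressed Sharp1, a basic helix-loop-helix repressor encoded by BHLHE41, and the labels name no vector for them, so an empty-vector control of their own was not analysed here. Each group had 4 arrays, labelled as biological replicates A to D without saying what separates them, and the p-values below reflect no more than the scatter among those arrays, which may be technical.

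DNA is wrapped around an octamer of H2A, H2B, H3 and H4, and linker histone H1 sits where it enters and leaves. The genes measured here are transcribed mainly in S phase, when new chromatin is assembled on replicated DNA, under the coactivator NPAT. Most of their mRNAs end in a stem-loop bound by SLBP and carry no poly(A) tail, though many of these genes can also make polyadenylated mRNA. The labels name a cRNA labelling kit but not the primer, so the share of each form in these values is not given. The coding regions of a class are nearly the same, which is why many probe sets cannot tell its genes apart. Of the 68 probe sets 20 carry several symbols, up to 14 on one probe set. By platform suffix, 14 are _x_at and 7 _s_at, both of which mark probes that can bind related transcripts. Only 35 probe sets carried 1 symbol and a plain suffix.

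Promoters of 5 genes on which the results turn are shown from RefSeq (GRCh38.p14), from 250 bases before the transcription start to 50 bases from it on. They are H2AC6 (chr6:26123922-26124221, plus strand), H2BC5 (chr6:26157871-26158170, plus strand), H2BC21 (chr1:149886633-149886932, minus strand), H4C8 (chr6:26285485-26285784, minus strand) and H1-2 (chr6:26056421-26056720, minus strand). The first 4 belong to genes whose signal was higher in both modified lines and the last to the member that fell most in shHIF cells. Capitals mark, on either strand, the CCAAT box (CCAAT), the octamer (ATTTGCAT), the TATA box (TATAAA) and the AC box of H1 promoters (AAACACA).
H2AC6: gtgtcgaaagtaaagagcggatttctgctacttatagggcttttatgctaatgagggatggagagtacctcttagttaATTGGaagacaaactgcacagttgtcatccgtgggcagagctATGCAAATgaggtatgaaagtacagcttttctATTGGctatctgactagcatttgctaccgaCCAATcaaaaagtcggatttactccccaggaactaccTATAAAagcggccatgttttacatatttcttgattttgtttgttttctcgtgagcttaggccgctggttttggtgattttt
H2BC5: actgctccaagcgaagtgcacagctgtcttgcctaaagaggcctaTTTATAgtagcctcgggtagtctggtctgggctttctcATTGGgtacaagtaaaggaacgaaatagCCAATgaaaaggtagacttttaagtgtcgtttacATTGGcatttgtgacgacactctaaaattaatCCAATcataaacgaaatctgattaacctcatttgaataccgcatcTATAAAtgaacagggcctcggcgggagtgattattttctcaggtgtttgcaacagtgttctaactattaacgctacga
H2BC21: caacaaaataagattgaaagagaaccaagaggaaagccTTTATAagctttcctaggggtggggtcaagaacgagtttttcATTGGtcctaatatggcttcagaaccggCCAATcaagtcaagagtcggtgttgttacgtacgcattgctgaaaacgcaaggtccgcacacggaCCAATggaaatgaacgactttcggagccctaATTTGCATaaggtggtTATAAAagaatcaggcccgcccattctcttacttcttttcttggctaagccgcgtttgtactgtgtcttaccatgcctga
H4C8: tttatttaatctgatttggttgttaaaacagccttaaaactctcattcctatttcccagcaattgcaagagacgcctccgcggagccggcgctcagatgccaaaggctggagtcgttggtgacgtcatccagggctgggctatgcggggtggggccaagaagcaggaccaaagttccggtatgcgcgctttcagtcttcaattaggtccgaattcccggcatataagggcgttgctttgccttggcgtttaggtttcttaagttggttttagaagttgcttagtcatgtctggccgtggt
H1-2: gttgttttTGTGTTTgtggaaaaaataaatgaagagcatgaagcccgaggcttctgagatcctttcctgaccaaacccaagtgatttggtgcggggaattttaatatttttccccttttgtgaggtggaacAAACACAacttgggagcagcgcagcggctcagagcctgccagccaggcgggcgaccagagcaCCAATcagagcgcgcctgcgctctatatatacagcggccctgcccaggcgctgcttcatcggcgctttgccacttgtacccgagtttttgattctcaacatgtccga

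H2AC6 and H2BC4 are divergent neighbours, and 255 bases of the H2AC6 window are shared with the window of H2BC4 on the other strand. That shared stretch holds 1 octamer, which is the binding sequence of the POU factor OCT1 and was described in H2B promoters. Of the 56 member genes with a window, 22 (39.3%) held the octamer, against 2.19% of 27305 genes with a window of the same length. By class the octamer was in 13 of 16 H2B, 8 of 13 H2A, 1 of 8 H3 and 0 of 13 H4 and 0 of 6 H1 windows. H2BC5, shown above, is an H2B gene whose window held no octamer. TATAAA was found in 66.1% of member windows and 14% of all windows, and CCAAT in 82.1% and 39.7%. AAACACA was found in 6 member windows, which are the 6 H1 windows, against 6.94% of all. The window of H4C8 held none of the motifs searched. The E-box CACGTG, a sequence bound by the repressor family of Sharp1, was in 0 of 56 member windows and 8.77% of all windows. The core of the hypoxia response element, ACGTG, which also lies inside CACGTG, was in 10 member windows (17.9%) and in 24.9% of all. Both strands were searched, and a match or its absence describes these letters only. Windows of divergent neighbours can overlap and are counted for each gene, so 1 site can count for both. The octamer and the TATAAA of H2AC6 are thus counted for H2BC4 too.

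Signals on all 12 arrays were log2 values, with array medians from 5.39 to 5.44 and a lowest correlation of 0.996 within a group. Of 4 BHLHE41 probe sets 2 were higher in Sharp1, most so 223185_s_at (3.89 ± 0.07 in control and 9.24 ± 0.29 in Sharp1, SD, n = 4), and 1 was lower (221530_s_at, 6.62 ± 0.20 and 4.56 ± 0.16). In shHIF arrays HIF1A fell by 0.73 log2 units (12.78 ± 0.02 to 12.05 ± 0.05) and EPAS1 fell by 2.85 (9.53 ± 0.06 to 6.68 ± 0.19). EPAS1 also fell by 0.71 in Sharp1, to 8.82 ± 0.02 (limma adjusted p = 7.07e-08), so a target of the hairpins was lower in both modified lines. Of the mesenchymal markers of this line, VIM, CD44 and AXL were bright, with group means of at least 11.93, while SPARC was dim at 3.67 to 3.98. Of 3 leukocyte markers (PTPRC, CD3E, CD14) PTPRC was called higher in both lines, at 4.01, 4.38 and 4.45 in control, shHIF and Sharp1, and of 4 fibroblast markers (COL1A1, COL3A1, LUM, DCN) COL3A1 was, at 3.93, 4.27 and 4.46. PTPRC and COL3A1 lie below the median probe set mean of 5.41. COL1A1, at 7.57, 7.55 and 7.40, lay above it, and DCN, at 5.32, 5.55 and 5.37, lay near it. Neither was called against control. Of markers listed as near background or as luminal, ESR1 (6.27 to 6.46), GATA3 (8.45 to 8.82) and KRT8 (11.46 to 11.70) lay above it. PGR, CDH1 and FOXA1 lay below it. The part of these markers in the histone values was not tested. Arrays shHIF A and D had the lowest mean spike-in signal (10.4, against 10.6 to 10.8 on the others), and the actin 3′ minus 5′ signal was 0.90 to 0.94 on shHIF A, B and C and 0.56 to 0.85 on the others. Whether these array measures moved the shHIF values was not tested, other than by leaving out arrays.

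Comparing Sharp1 with control asked which histone genes differ when Sharp1 is raised. Of the H2B genes, 10 of 19 H2B probe sets rose and none fell, led by H2BC4, which rose 2.28-fold. These 10 are not separate readings, since some share symbols or can bind relatives. Of the 9 H2B probe sets with 1 symbol and a plain suffix, 3 rose. H4C8 rose 2.11-fold, H2BC21 1.78-fold, H2BC5 1.58-fold and H2AC6 1.54-fold. Here and in shHIF, the probe sets of H2BC21, H2BC5 and H2AC6 carry suffixes for probes that can bind relatives. H1-4 and H3C6 fell, and most H1, H2A, H3 and H4 probe sets did not pass the test. In all, 14 of the 68 member probe sets were called higher and 2 lower by limma at an adjusted p under 0.05, or 23.5%, where 18.1% of all probe sets were called. Called higher were 20.6% of members and 9.82% of all probe sets, called lower 2.94% and 8.26%, and the median difference was 0.05 among members and -0.01 among all. Brightness bears on this share. Of the 32 members above the median probe set mean 34.4% were called higher, against 17.4% of all probe sets that bright. Of the 36 below it 8.33% were, against 2.2%. The split used the mean over all 12 arrays, so a rise can itself carry a probe set above it. H2BC4, 214455_at and H4C8 (208180_s_at and 232035_at) counted as bright with control means of 4.95, 5.14, 5.33 and 5.34, below 5.41. Among the 35 probe sets with 1 symbol and a plain suffix, 4 rose and 2 fell, or 11.4% higher, which is near the 9.82% of all probe sets. In bulk RNA, a different share of cells in S phase and a different amount of histone RNA per cell cannot be told apart.

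**Figure D1:**
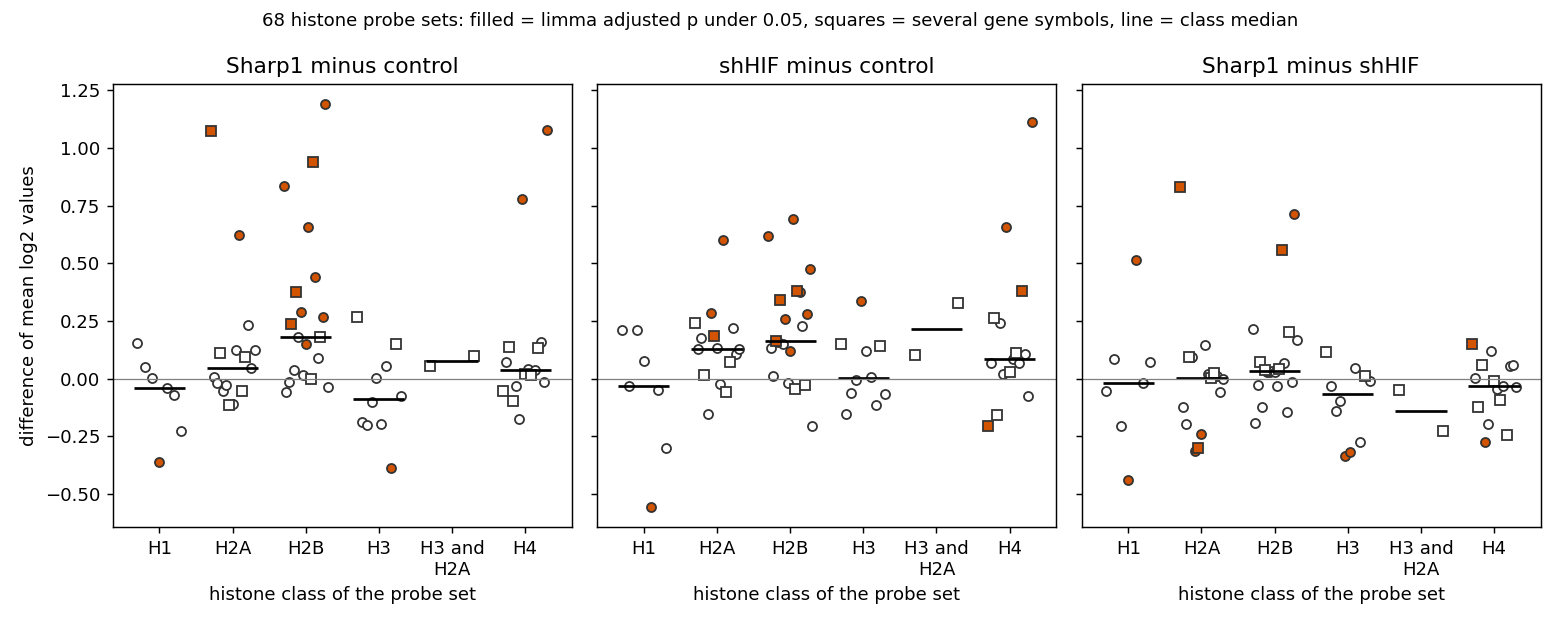
Difference of mean log2 values for each of the 68 member probe sets, by histone class, in the 3 comparisons. Filled symbols passed limma at an adjusted p under 0.05, squares carry several gene symbols and lines are class medians. Filled symbols of the H2B class lie above 0 in both comparisons with control, 10 of 19 in each.

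Comparing shHIF with control asked the same of cells with both alpha subunits depleted. H4C8 rose most, 2.16-fold, followed by H2BC5 at 1.61-fold, H2BC21 at 1.53-fold and H2AC6 at 1.52-fold, while H2BC4 rose 1.39-fold. The linker histone gene H1-2 fell to 0.68 of control, and the H4 probe set shared by 14 genes fell by 0.20 log2 units. Altogether 17 members rose and 2 fell, or 27.9%, where 22.2% of all probe sets were called. Called higher were 25% of members and 10.7% of all probe sets, called lower 2.94% and 11.5%, with median differences of 0.12 and 0.02. Of the 32 brighter members 46.9% were called higher against 18% of all probe sets that bright, and of the 36 dimmer ones 5.56% against 3.47%. The limit of this split given for Sharp1 holds here too, and the H4 probe set 214516_at counted as bright with a control mean of 5.34. Among the 35 probe sets with 1 symbol and a plain suffix 5 rose and 1 fell, or 14.3% higher. By class, 10 of 19 H2B, 3 of 15 H2A, 3 of 15 H4, 1 of 10 H3 and 0 of 7 H1 probe sets rose. Of the 9 H2B probe sets with 1 symbol and a plain suffix, 3 rose. Without array shHIF B the count of rises was 11, and without shHIF A and D it was 13. Both comparisons use the same 4 control arrays, so their values below are set side by side and are not independent of each other.

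The H2B genes encode the partner of H2A in the nucleosome's side dimers. The class mean over its 19 probe sets was 6.02 to 6.15 on control arrays, 6.27 to 6.33 on shHIF arrays and 6.33 to 6.44 on Sharp1 arrays. All control arrays thus lay below all others. That was not particular to H2B. For H2A the highest control array was 6.01 and the lowest other array 6.08, and for H4 they were 5.70 and 5.79. Over all 68 members they were 5.70 and 5.78. The H1 and H3 means did not part that way. H2BC4 (236193_at, 1 symbol, plain suffix) read 4.84, 4.96, 4.85 and 5.15 on control A to D, 5.40, 5.64, 5.33 and 5.33 on shHIF, and 6.15, 6.20, 6.20 and 6.02 on Sharp1. Its 3 groups did not overlap: Sharp1 was highest, shHIF between, and control lowest. The difference was 1.19 (SE 0.10, limma adjusted p = 2.01e-09) for Sharp1 and 0.48 (SE 0.10, adjusted p = 0.000879) for shHIF, and Sharp1 exceeded shHIF by 0.72 (SE 0.10, adjusted p = 3.68e-06).

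A probe set shared by H2BC4, H2BC10, H2BC6, H2BC7 and H2BC8 (214455_at) read 4.97, 5.28, 5.21 and 5.11 in control, 5.22, 5.60, 5.68 and 5.60 in shHIF, and 6.11, 6.15, 6.14 and 5.91 in Sharp1. The Sharp1 arrays lay above all others, while shHIF A fell within the control range. Its differences from control were 0.94 (SE 0.11, limma adjusted p = 3.67e-07) in Sharp1 and 0.38 (SE 0.11, adjusted p = 0.011, and 0.0506 without control A) in shHIF. With these symbols, signal cannot be assigned to 1 of the 5 genes. The 2 other probe sets with the same symbols, both _x_at, rose by 0.38 and 0.24 in Sharp1 and by 0.34 and 0.16 in shHIF.

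H2BC5 (209911_x_at) read 9.49, 9.53, 9.44 and 9.51 in control, 10.27, 10.19, 10.09 and 10.18 in shHIF, and 10.07, 10.20, 10.24 and 10.09 in Sharp1. Both modified lines lay above control with no overlap and overlapped each other. The rise was 0.66 (SE 0.05, limma adjusted p = 3.38e-10) in Sharp1 and 0.69 (SE 0.05, adjusted p = 2.83e-10) in shHIF. Its second probe set (222067_x_at) rose by less, 0.27 and 0.28, from 9.37 ± 0.07 to 9.64 ± 0.04 in Sharp1 and 9.65 ± 0.05 in shHIF (SD, n = 4). Both carry the suffix for probes that can bind relatives.

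H2BC21, an H2B gene on chromosome 1, read 4.47, 4.73, 4.87 and 4.78 in control, 5.48, 5.44, 5.09 and 5.31 in shHIF, and 5.37, 5.66, 5.64 and 5.51 in Sharp1 (202708_s_at). No array of the modified lines reached down to the control range. The differences were 0.83 (SE 0.11, limma adjusted p = 3.39e-06) in Sharp1 and 0.62 (SE 0.11, adjusted p = 0.000163) in shHIF. H2BC12 (209806_at), the brightest H2B probe set, read 11.72, 11.71, 11.72 and 11.78 in control, 11.88, 11.88, 11.81 and 11.84 in shHIF, and 11.80, 11.90, 11.95 and 11.89 in Sharp1. It rose in both lines, but by 0.15 (SE 0.04, limma adjusted p = 0.00347) and 0.12 (SE 0.04, adjusted p = 0.0156) only, the latter at an adjusted p of 0.0523 without shHIF A and 0.0517 without control B. Without the trend in eBayes neither call held (limma adjusted p = 0.0779 in Sharp1 and 0.136 in shHIF), and with arrays centred the shHIF value was 0.0581. Among the rest, H2BC9 (208546_x_at) rose by 0.29 and 0.26 and the dim H2BC11 (214502_at) by 0.44 and 0.37 in Sharp1 and shHIF. On 214502_at the shHIF arrays overlapped control (limma adjusted p = 0.0316). Probe sets shared by H2BC11 and H2BC8 were called in neither line. They differed by -0.002 in Sharp1 and -0.04 in shHIF (210387_at) and by 0.18 and -0.03 (215779_s_at).

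**Figure D2:**
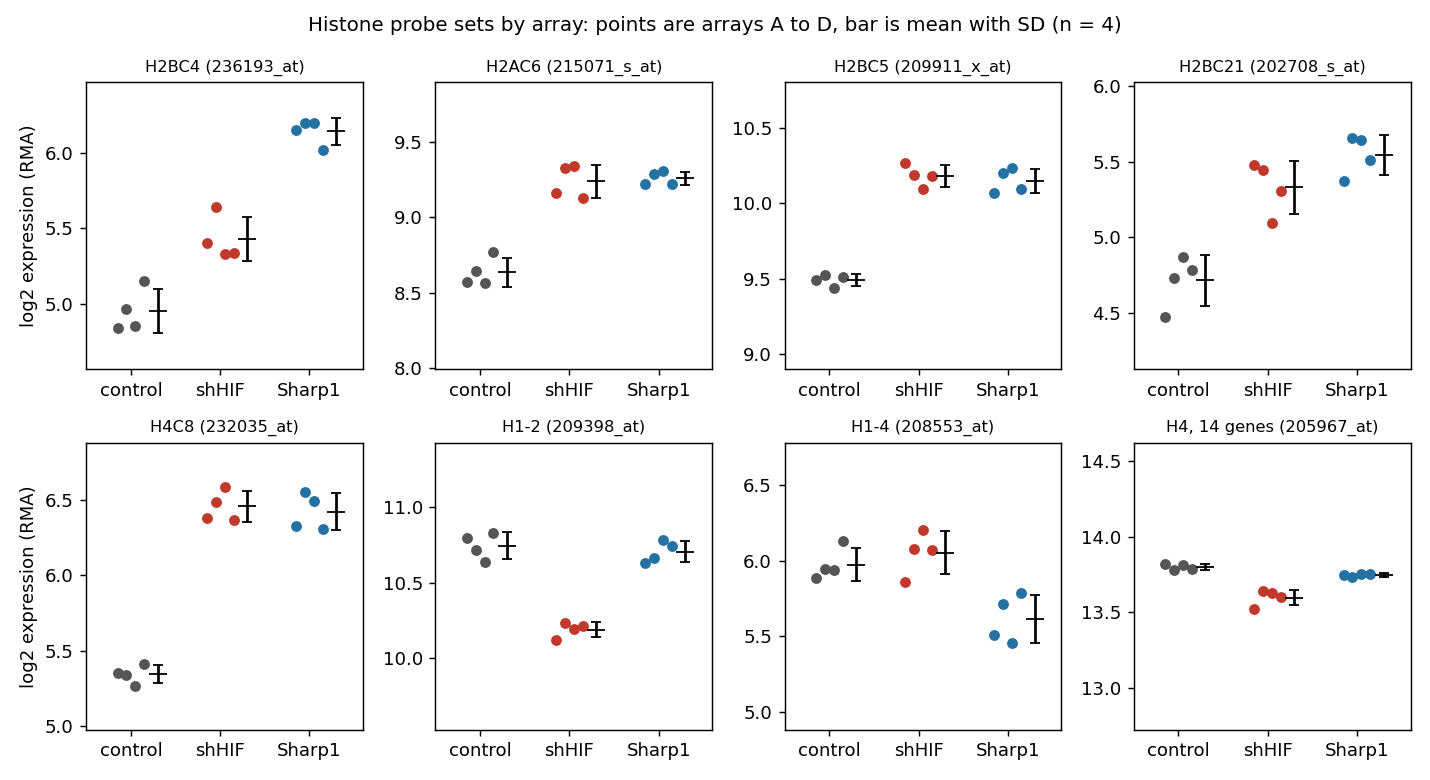
Log2 values of 8 member probe sets on each of the 12 arrays, with points for arrays A to D and a bar for the mean and SD (n = 4) of each group. All panels span the same number of log2 units, and panels are not comparable in level. H2BC4, H2AC6, H2BC5, H2BC21 and H4C8 are higher in both modified lines, H1-2 is lower in shHIF, H1-4 in Sharp1, and the shared H4 probe set in shHIF.

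The H2A genes lie beside H2B genes, often in divergent pairs. Of their 15 probe sets 2 rose in Sharp1 and 3 in shHIF, and none fell against control. That is 13.3% and 20% called higher, where 9.82% and 10.7% of all probe sets were. Of the rises in shHIF, that of 214542_x_at was lost under 13 of 19 other settings. H2AC6, the divergent partner of H2BC4, read 8.57, 8.64, 8.56 and 8.77 in control, 9.16, 9.33, 9.34 and 9.13 in shHIF, and 9.22, 9.29, 9.31 and 9.22 in Sharp1 (215071_s_at). The modified lines lay above control without overlap and within the same range as each other. It rose by 0.62 (SE 0.06, limma adjusted p = 2.5e-08) in Sharp1 and 0.60 (SE 0.06, adjusted p = 5.86e-08) in shHIF, and the difference between these lines was 0.02 (SE 0.06, adjusted p = 0.835).

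A pair of probe sets carries the same 6 H2A symbols (H2AC11, H2AC12, H2AC13, H2AC15, H2AC16 and H2AC17). The first (207156_at) read 4.71, 5.17, 4.79 and 5.08 in control, 5.12, 5.46, 5.35 and 4.79 in shHIF, and 5.97, 5.56, 6.37 and 6.14 in Sharp1. It rose 2.1-fold in Sharp1, by 1.07 (SE 0.15, limma adjusted p = 1.07e-05), and its difference in shHIF was 0.24 (SE 0.15, adjusted p = 0.309). The second (214542_x_at) read 7.61, 7.74, 7.58 and 7.63 in control, 7.87, 7.83, 7.74 and 7.87 in shHIF, and 7.47, 7.51, 7.65 and 7.48 in Sharp1. On it Sharp1 differed from control by -0.11 (SE 0.07, limma adjusted p = 0.298) and from shHIF by -0.30 (SE 0.07, adjusted p = 0.000992), whereas the first probe set put Sharp1 above shHIF by 0.83 (adjusted p = 0.000147). Probe sets naming the same genes were thus called in opposite directions between the modified lines, and these 6 genes have no single direction here. The brightest H2A probe set, shared by H2AC18 and H2AC19 (214290_s_at), read 10.66, 10.58, 10.66 and 10.69 in control, 10.66, 10.60, 10.59 and 10.81 in shHIF, and 10.68, 10.78, 10.83 and 10.75 in Sharp1. It was called in no comparison. H2AC17 on its own probe set (214481_at) read 6.43, 6.43, 6.18 and 6.38 in control, 6.48, 6.89, 6.54 and 6.66 in shHIF, and 6.18, 6.27, 6.52 and 6.35 in Sharp1. It rose in shHIF by 0.29 (SE 0.10, limma adjusted p = 0.037), a call lost without control C, control D, shHIF B or shHIF D, and its Sharp1 difference was -0.03.

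H3 and H4 form the central tetramer of the nucleosome. H4C8 is measured by 2 probe sets of its own. The first (232035_at) read 5.35, 5.34, 5.26 and 5.41 in control, 6.38, 6.49, 6.59 and 6.37 in shHIF, and 6.33, 6.55, 6.49 and 6.31 in Sharp1. All 8 arrays of the modified lines lay about 1 log2 unit above control. The rise was 1.08 (SE 0.09, limma adjusted p = 1.12e-09) in Sharp1 and 1.11 (SE 0.09, adjusted p = 1.1e-09) in shHIF, with -0.03 (SE 0.09, adjusted p = 0.811) between them. The second probe set (208180_s_at) read 5.38, 5.20, 5.33 and 5.42 in control, 5.86, 6.08, 6.0 and 6.0 in shHIF, and 6.21, 6.19, 5.96 and 6.08 in Sharp1. It too showed both lines above control, by 0.78 (SE 0.09, limma adjusted p = 4.53e-07) and 0.66 (SE 0.09, adjusted p = 5.78e-06) in Sharp1 and shHIF.

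The H4 probe set shared by 14 genes, H4C8 included, was the brightest of its class (205967_at). It read 13.82, 13.78, 13.81 and 13.79 in control, 13.52, 13.64, 13.63 and 13.60 in shHIF, and 13.75, 13.73, 13.75 and 13.75 in Sharp1. The shHIF arrays were lowest, by 0.20 against control (SE 0.03, limma adjusted p = 4.17e-06), and the Sharp1 difference was -0.05 (SE 0.03, adjusted p = 0.215). Of the 4 dimmer probe sets with the same 14 symbols, 214516_at rose in shHIF by 0.38 (limma adjusted p = 0.0202). The other 3 were called in no comparison, with shHIF differences of 0.26 (207046_at, adjusted p = 0.0869), 0.11 (208580_x_at, adjusted p = 0.312) and 0.03 (208181_at, adjusted p = 0.887). In Sharp1 the 4 differed from control by 0.02 to 0.14 and none was called. Of the 5 probe sets with these symbols, 1 thus fell, 1 rose and 3 were not called in shHIF.

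Among the 10 H3 probe sets 1 changed in each comparison with control, or 10%, where 18.1% of all probe sets were called in Sharp1 and 22.2% in shHIF. H3C6 (214616_at) read 5.67, 5.46, 5.75 and 5.25 in control, 5.54, 5.42, 5.23 and 5.49 in shHIF, and 5.34, 5.19, 4.91 and 5.13 in Sharp1. Sharp1 fell below control (log2 difference -0.39, SE 0.12, limma adjusted p = 0.0192), though control D, at 5.25, lay within the Sharp1 range. The call was lost without control A, control C or Sharp1 C, with limma adjusted p of 0.0744, 0.0916 and 0.0929. The second H3C6 probe set differed by -0.08 and was not called. H3C2 (208576_s_at) read 5.85, 6.07, 5.98 and 6.20 in control, 6.19, 6.59, 6.54 and 6.13 in shHIF, and 5.95, 5.92, 6.26 and 5.98 in Sharp1. It rose by 0.34 in shHIF (SE 0.11, limma adjusted p = 0.0298) with overlapping arrays, and its Sharp1 difference was 0.00 (adjusted p = 0.995). That call was lost without any one of control A, B or C or shHIF B or C, with limma adjusted p from 0.05003 to 0.1223. The brightest H3 probe set, H3C8 (208496_x_at), read 6.13, 6.44, 6.34 and 6.35 in control, 6.37, 6.06, 6.18 and 6.05 in shHIF, and 5.96, 6.09, 6.17 and 6.30 in Sharp1. It differed from control by -0.19 in Sharp1 and -0.15 in shHIF and was called in neither line. H3C3 (208577_at) read 6.29, 6.21, 6.12 and 6.30 in control, 6.16, 6.50, 6.44 and 6.29 in shHIF, and 6.04, 5.96, 6.15 and 5.97 in Sharp1. Its arrays overlapped control in both lines, and it was called only between the modified lines.

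The H1 linker histones bind outside the core particle and compact chromatin. H1-2 (209398_at), the brightest H1 probe set, read 10.80, 10.72, 10.64 and 10.83 in control, 10.12, 10.23, 10.19 and 10.21 in shHIF, and 10.63, 10.66, 10.78 and 10.74 in Sharp1. The 4 shHIF arrays lay below all 8 others. The fall in shHIF was 1.47-fold (log2 difference -0.56, SE 0.05, limma adjusted p = 6.22e-09), the Sharp1 difference was -0.04 (SE 0.05, adjusted p = 0.693), and Sharp1 exceeded shHIF by 0.52 (adjusted p = 7.66e-09). H1-4 (208553_at) had the other order: 5.89, 5.95, 5.94 and 6.13 in control, 5.86, 6.08, 6.21 and 6.07 in shHIF, and 5.51, 5.71, 5.45 and 5.79 in Sharp1. It fell in Sharp1 (log2 difference -0.36, SE 0.10, limma adjusted p = 0.011, and 0.053 without Sharp1 C), and its shHIF difference was 0.08 (SE 0.10, adjusted p = 0.645). No H1 probe set rose against control in either line, where 9.82% of all probe sets rose in Sharp1 and 10.7% in shHIF. There are only 7 H1 probe sets, and 4 of them lay below the median probe set mean.

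Setting Sharp1 directly against shHIF, 5 member probe sets were higher in Sharp1 and 7 lower, or 17.6%, where 29.1% of all probe sets were called. That is 7.35% of members higher against 15.3% of all, and 10.3% lower against 13.8% of all. With each array centred on its median the counts were 5 and 4. The 5 higher were H2BC4, the shared H2B and H2A probe sets 214455_at and 207156_at, H1-2, and the shared H4 probe set 205967_at. The lower ones were H1-4 (log2 difference -0.44, limma adjusted p = 0.00126), H3C2 (-0.34, adjusted p = 0.0241), H3C3 (-0.32, adjusted p = 0.00833), H2AC17 (-0.31, adjusted p = 0.0168), 214542_x_at as given above, H4C1 (-0.27, adjusted p = 0.0322) and H2AC16 (-0.24, adjusted p = 0.0432). H4C1 (208046_at) read 4.59, 4.85, 4.69 and 4.73 in control, 4.89, 4.88, 4.96 and 5.11 in shHIF, and 4.75, 4.65, 4.64 and 4.69 in Sharp1. Its call was lost when any one of 5 arrays (shHIF C or D, Sharp1 B, C or D) was left out, that of H3C2 for shHIF B or C or Sharp1 A, B or D, and that of H2AC17 for shHIF B or Sharp1 A. For H2BC5, H2AC6, H4C8 and H2BC21 the test found no difference, with -0.03 (SE 0.05), 0.02 (SE 0.06), -0.03 (SE 0.09) and 0.22 (SE 0.11) log2 units, which does not show that the lines act alike on them.

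By gene order, the first gene group on chromosome 6 (H2AC1 to H4C8, 34 genes) had 29 probe sets of single genes, of which 7 rose and 2 fell in Sharp1 and 8 rose and 1 fell in shHIF. The called genes H2BC4, H2AC6, H1-4 and H2BC5 are neighbours in the RefSeq order, and H1-4, which fell in Sharp1, lies between H2AC6 and H2BC5, which rose. In the last group (H2BC13 to H2BC17, 16 genes) none of 13 rose or fell in Sharp1 and 1, H2AC17, rose in shHIF, with medians of 0.04 and 0.13. The small group between them (H2BC11 to H2AC12) had 3 such probe sets, of which H2BC11 and H2BC12 rose in both. The probe sets that H2BC11 shares with H2BC8 were not called. Over all probe sets 9.82% were called higher and 8.26% lower in Sharp1, and 10.7% and 11.5% in shHIF. Most of the 13 probe sets of the last group were dim, such as H2BC13 (4.41), H2BC14 (3.93) and H3C11 (3.25). Of all probe sets at or below the median, 2.2% were called higher in Sharp1 and 3.47% in shHIF. Whether the groups of genes differ was not tested. Of the genes called higher in Sharp1 on a probe set of their own, 8 had a promoter window, with the octamer in 6 and CCAAT in 7. In shHIF there were 10, with the octamer in 7 and CCAAT in 9. Both sets count the octamer that H2AC6 and H2BC4 share for each of these neighbours. H2B genes make up most genes of both sets and most octamer windows of the members, and 81.2% of all H2B windows held the octamer. Within classes, H2BC3, H2BC14, H2AC4 and H2AC8 held it and were not called against control, and H2BC5 rose without it. Whether the motif goes with the rises, apart from class, was not tested.

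**Figure D3:**
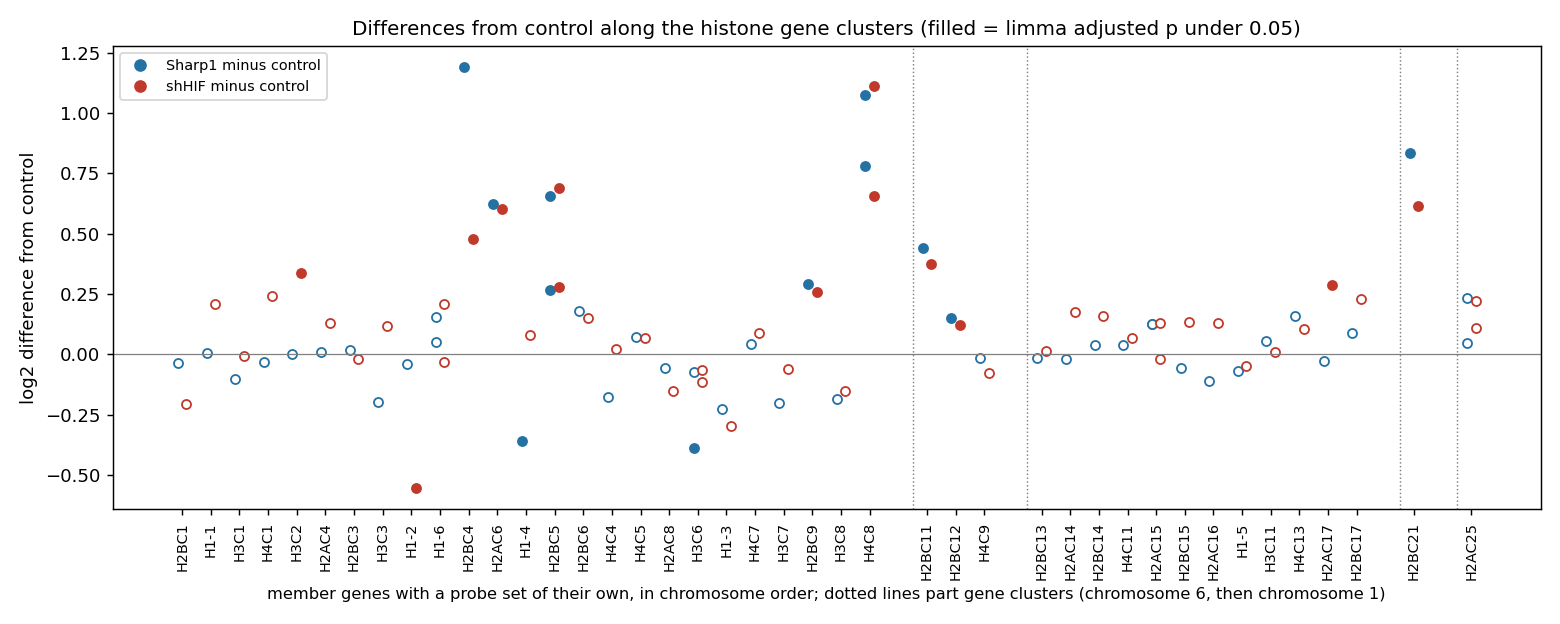
Log2 difference from control (vertical axis) of every probe set that names 1 member gene, in chromosome order, for Sharp1 (blue) and shHIF (red). Filled points passed limma at an adjusted p under 0.05 and dotted lines part the gene groups. Filled points above 0 are spread over the first group on chromosome 6, up to H4C8 at its end, and 1 filled point lies in the last group on that chromosome.

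The machinery that makes and uses these mRNAs was taken from lists of known factors, with the brightest probe set per gene. Over all 19775 genes read that way, 14% were called higher and 10.7% lower in Sharp1, and 16% and 12.3% in shHIF, and each count below is to be read against these shares. Of 23 genes for histone pre-mRNA processing, stem-loop binding and their activation, 2 rose and 6 fell in Sharp1 and 6 rose and 5 fell in shHIF. SLBP, which binds the stem-loop, fell from 11.96 ± 0.03 in control to 11.61 ± 0.03 in Sharp1 (SD, n = 4, limma adjusted p = 1.46e-07) and 11.80 ± 0.07 in shHIF (adjusted p = 0.00305), with no overlap with control. CCNE1, a cyclin E that with CDK2 activates NPAT, rose by 0.36 in Sharp1 and 1.29 in shHIF. CCNE2, also a cyclin E, was called lower in Sharp1 (log2 difference -0.20, limma adjusted p = 0.0185), and its shHIF difference of 0.12 was not called. NPAT itself rose in shHIF from 8.81 ± 0.06 to 9.07 ± 0.02 (adjusted p = 0.000323), and its Sharp1 level was 8.84 ± 0.03. ZNF473, a zinc-finger protein of the U7 processing complex, and LSM10, a U7 ring subunit, rose by 0.57 and 0.38 in shHIF. CPSF2, ERI1 and CSTF2T were called lower there, with -0.24, -0.19 and -0.19.

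Of 28 genes of S phase measured, 6 rose and 6 fell in Sharp1 while 3 rose and 11 fell in shHIF, with medians of 0.04 and -0.09. In Sharp1 the origin licensing genes CDC6 and CDT1 rose by 0.40 and 0.30 and RRM2, a ribonucleotide reductase subunit, by 0.21. LIG1, the replicative DNA ligase, differed by -0.21 there, and the helicase subunits MCM3 and MCM7 by -0.21 and -0.20. In shHIF, RRM1, the other ribonucleotide reductase subunit, differed by -0.76, MCM6 by -0.44 and POLE2, a DNA polymerase epsilon subunit, by -0.36. E2F1, which drives S-phase genes, rose there by 0.35, and CDT1 rose in shHIF too, by 0.28. The part of S-phase timing in the histone values was not tested.

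Of 19 histone chaperones 1 rose and 5 fell in Sharp1, and 7 rose and 1 fell in shHIF. ASF1B, an H3-H4 chaperone, rose by 0.15 in Sharp1 and 0.17 in shHIF. RBBP4, a subunit of the chromatin assembly factor, differed by -0.34 in Sharp1. HIRA and DAXX, which deposit the H3.3 variant, rose by 0.26 and 0.19 in shHIF. ANP32E, which removes H2A.Z, fell in both, with -0.22 in Sharp1 and -0.47 in shHIF. Of 10 histone variants outside the rule that were tested, 1 rose and 1 fell in Sharp1 and 4 rose and 3 fell in shHIF. H2AX, the variant phosphorylated at DNA breaks, rose by 0.24 in Sharp1, and the linker variant H1-10 fell in both, with -0.30 and -0.40. Of 12 genes for histone mRNA translation and decay 2 rose and 3 fell in Sharp1 and 2 rose and 4 fell in shHIF. MIF4GD, which links SLBP to translation, rose in Sharp1 and fell in shHIF, with 0.38 and -0.29. PNRC2, a decay adaptor, differed by -0.16 in Sharp1 and -0.61 in shHIF. TENT4B, also on this list, rose by 0.60 in shHIF, and its Sharp1 difference of 0.13 was not called.

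**Figure D4:**
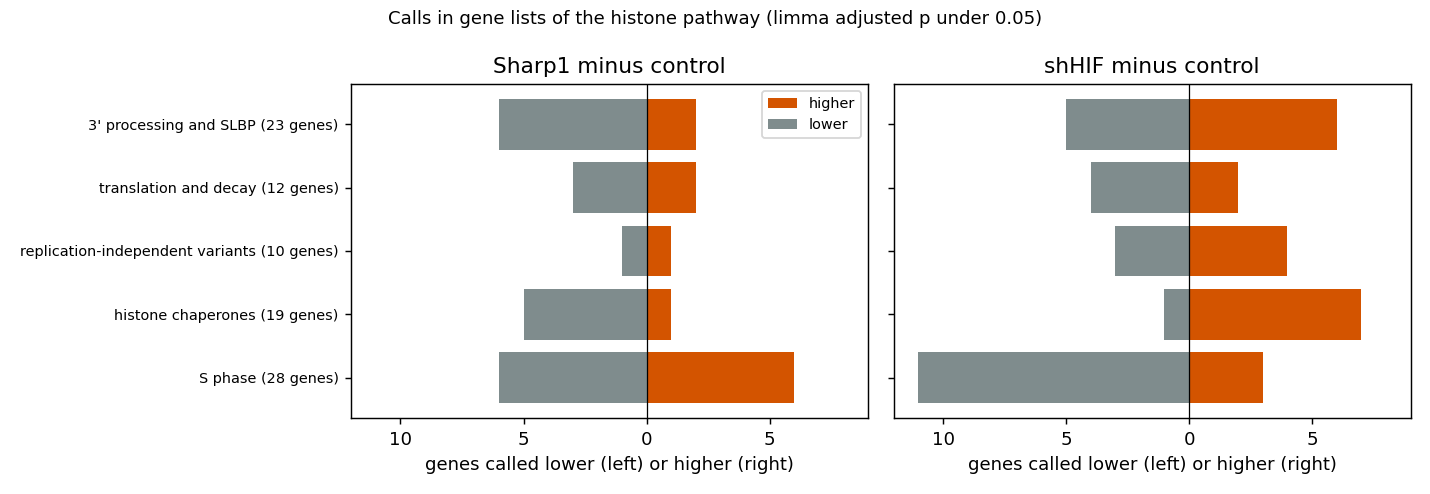
Number of genes called higher (orange, right) or lower (grey, left) at a limma adjusted p under 0.05 in 5 lists of genes that process, use or accompany histone mRNA, in Sharp1 and in shHIF against control. In shHIF 11 of 28 S-phase genes are lower and 3 higher, and in Sharp1 6 are lower and 6 higher.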

How the data were processed

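Total RNA was labelled as biotinylated cRNA, per the labels' protocols, and read on 12 Affymetrix arrays. The authors deposited log2 values made with RMA, per the submitters' processing notes, of a version not given in the sources used. The values were used as deposited. RMA as commonly run equalises the arrays' distributions, which removes a shift common to all genes. Arrays give no read depth, and their number (4 a group) limits the precision.

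After 62 control probe sets were left out, 54613 were fitted together over all 12 arrays with limma 3.58.1 (lmFit, eBayes with trend) in R 4.3.3, and p-values were adjusted by Benjamini-Hochberg within each comparison, with 0.05 as the threshold and no filter. The script was tested on simulated data. Members, gene lists and tests were chosen with earlier results of these data known.

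Full array values are given, per comparison, for up to 6 called member probe sets with the largest rise and 6 with the largest fall, and for the brightest of each class. Of each list of other genes, up to 3 rises and 3 falls could be named. NPAT and the shHIF values of SLBP and CCNE2 were added for their role, with their values known. The shHIF values of ASF1B and MIF4GD were added so that both lines are given. Alternatives left out each array or dim probe sets, centred arrays on their median, or changed the fit. Of 61 member genes, all were matched to RefSeq by gene ID.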

Additional observations from a re-analysis of the deposited data

How the results depend on the processing

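No called value that was followed changed sign under any setting run, and 24 of 35 called values that were followed stayed called under all of them. Values not called changed sign 19 times, for 8 of 25 of them, between -0.08 and 0.04, H4C8, H2BC5 and H2AC6 in Sharp1 against shHIF included. With only unshared probe sets, the members called higher numbered 4 in Sharp1 (H2B 3), 5 in shHIF (H2B 3) and 2 in Sharp1 against shHIF, and those lower in shHIF 1. These sets are smaller (35 members, 9 of H2B). With 1 probe set per gene, 42 members, the counts called higher were 9 in Sharp1, 11 in shHIF (H2B 6) and 2 in Sharp1 against shHIF, where 15.3%, 17.6% and 18% of all genes were called higher. The excess of members over all genes in Sharp1 and shHIF is smaller there than with all probe sets. The counts of H2B alone were added after the class counts had been seen. Without dim probe sets, 1 member fell in Sharp1. With array centring, 4 were lower in Sharp1 than in shHIF, and the cause was not tested.

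Leaving out 1 array, the count lower in Sharp1 ranged from 0 (without Sharp1 C) to 2 and was 1 without control A or C. The count higher in shHIF ranged from 11 (without shHIF B) to 18, and that lower in Sharp1 than in shHIF from 4 (without shHIF B or Sharp1 D) to 8. H3C6 lost its call in Sharp1 under 4 settings. H3C2 in shHIF lost it under 6, and 214542_x_at in shHIF under 13 of 19.

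The labels do not say whether the letters A to D pair the samples, and the main fit did not pair them. Deviations of same-lettered arrays from their group means correlated from -0.16 to 0.13, which cannot settle how the samples were prepared. With the replicate block, 14 members rose and 2 fell in Sharp1, 15 rose and 2 fell in shHIF, and 5 were higher and 6 lower in Sharp1 than in shHIF. Of the 68 members, 36 lay below the median probe set mean, where few probe sets of any kind were called.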
